A study of Mus musculus with 7 samples.

Results

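The resting transcriptome of wild-type nucleus pulposus, the gel-like core of the intervertebral disc, was read from 4 of the 7 arrays of the series, those of the animals labelled WT. Its members were all genes with 1 symbol in the platform annotation. For each gene the feature with the highest mean over the 4 animals was taken, which gave 19505 genes from 19572 named features out of 28846 on the array. The other arrays, of 3 mice without MCT4, entered no value. The WT animals were C57BL/6 mice aged 13 months, born as littermates of the knockouts to MCT4+/- parents that had been backcrossed to C57Bl/6N, and the labels name no treatment. Nucleus pulposus of lumbar and caudal discs was pooled within a mouse, so each array is a separate animal and disc levels cannot be told apart. Neither labels nor protocols state whether the animals were male or female. RNA of the dissected tissue was measured as a whole, so fewer cells of a type and less RNA per cell cannot be told apart.

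The nucleus pulposus descends from the embryonic notochord and keeps its cells in a proteoglycan-rich matrix without blood vessels. Oxygen and glucose reach these cells by diffusion, and the tissue is known for steady HIF-1 activity, for energy from glycolysis and for the export of lactate through the carrier MCT4. The fixed charges of aggrecan draw in water and salt, so the cells also live in a hypertonic and acidic surrounding.

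All levels are log2 values as deposited, and a ± gives the SD over 4 animals. The brightness of a feature depends on its probes as well as on its RNA, so calls rest on background features of the same array. Percentiles, the order of brightness and the medians of lists set features of different genes side by side and only describe features, not amounts of RNA. The percentile of a gene is its place among the 19505 gene means. A gene was called above the control limit when it exceeded, on every WT array, the 95th percentile of the 5222 negative control features marked MG-1-neg on that array. That limit ran from 9.59 to 9.93, while the median of the controls ran from 5.91 to 6.08. Some control features were bright, up to 18.9, and 3.60% of them passed their own limit on all 4 arrays, so the limit is a strict one. As a lower limit served the 95th percentile of 1091 olfactory receptor genes, chosen because their transcription belongs to the olfactory epithelium, which ran from 6.04 to 6.16.

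Of the 19505 genes, 4106 (21.1%) were above the control limit in every animal and 9904 (50.8%) were above the olfactory limit in every animal. Thus 5798 genes (29.7%) lay between the limits and 9601 (49.2%) did not pass the lower one. None of the 1091 olfactory receptors passed the control limit and 33 (3.02%) passed their own. The lower limit was also passed by 35.1% of the control features, so a gene between the limits is dim rather than clearly present. To pass a limit means to pass it on all 4 arrays. A gene that failed the lower limit on at least 1 array is called at background, and the genes that passed the lower limit but not the control limit lie between the limits. Gene medians of the 4 arrays ran from 6.46 to 6.50, and Pearson's r between arrays across genes ran from 0.990 to 0.995, where genes are not independent replicates. Among the 4106 genes above the control limit the median SD between animals was 0.17, and 95% had an SD below 0.46.

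**Figure D1:**
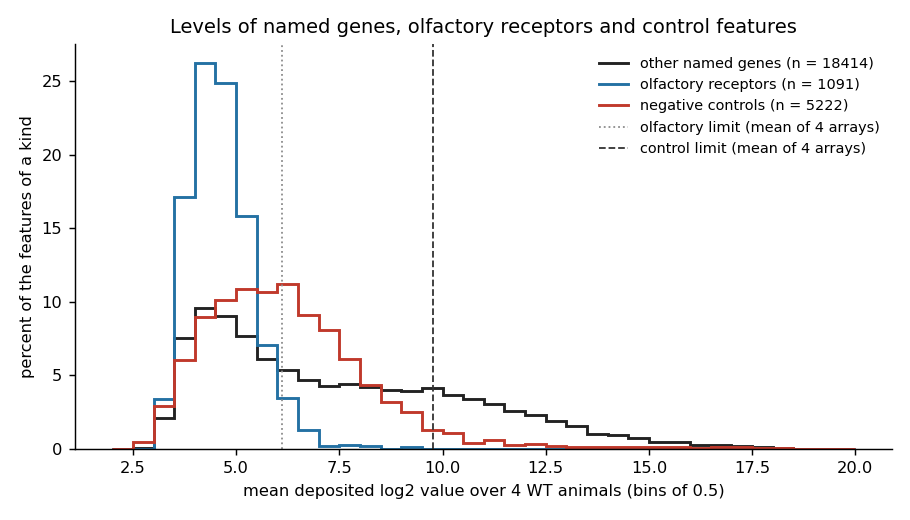
Share of features (y axis, percent of the features of a kind) by mean deposited log2 value over the 4 WT animals (x axis, bins of 0.5) for named genes other than olfactory receptors, for 1091 olfactory receptors and for 5222 negative control features. Olfactory receptors gather below the lower limit, negative controls spread more widely, and the named genes run on to 19.3.

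The animal labelled WT 1 stood apart from the others. Eif2s3y, a Y-linked subunit gene of a translation initiation factor, read 3.53, 11.50, 11.57 and 11.28 in WT 1 to 4. Uty, a Y-linked paralogue of the histone demethylase gene Utx, read 3.26, 10.39, 10.87 and 10.66, and the demethylase gene Kdm5d read 4.36, 7.24, 7.73 and 7.42. WT 1 lay at background for all 3 Y-linked genes measured, and WT 2, WT 3 and WT 4 lay well above it, so the animals did not carry the same sex-linked RNA. WT 1 also held the lowest level of most of the genes that varied, as given with those genes. Without WT 1 the number of genes above the control limit was 4150, and without WT 2, in which neutrophil genes read highest, it was 4178. A call on 3 arrays is easier to pass than a call on 4.

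Tissue identity was read from 6 marker genes. Krt19, a keratin of notochord-derived cells, read 17.32, 17.00, 17.19 and 17.18, at percentile 99.7. Acan, the gene of aggrecan, read 17.98, 17.75, 17.88 and 18.05, at percentile 99.9. These levels were far above both limits and nearly the same in the 4 animals. Slc2a1, the glucose carrier GLUT1, read 18.58, 18.70, 18.94 and 18.97. Slc16a3, the lactate exporter MCT4, read 13.55, 13.35, 13.61 and 13.40, and Car9, a carbonic anhydrase on the outer cell surface, read 11.40, 11.50, 11.59 and 11.89. All 5 passed the control limit in each animal. Col2a1, the chain of type II collagen, read only 8.29, 8.10, 7.58 and 8.30, at percentile 63.5, above the olfactory limit and below the control limit in every animal.

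The wider list of notochord and nucleus pulposus genes had 13 of 24 measured members above the control limit and 18 of 24 above the olfactory limit, against 21.1% and 50.8% of all genes. Its median level was 11.66, against 6.47 over all genes. Among its members were Lgals3 (galectin-3) at 17.63 ± 0.17, the surface protein gene Cd24a at 17.45 ± 0.015, Sox9, the cartilage transcription factor, at 16.89 ± 0.35, and the keratin genes Krt8 at 16.78 ± 0.19 and Krt18 at 13.50 ± 0.72. Cdh2, the gene of N-cadherin, stood at 15.82 ± 0.10 and Ncam1, another adhesion molecule, at 15.80 ± 0.23. Shh, the notochordal signal, lay between the limits at 9.65, 8.29, 8.23 and 8.35, as did Noto, a notochord homeobox gene, at 6.82, 6.59, 6.79 and 6.91. Of the forkhead factor genes, Foxa2 read 6.52, 6.44, 6.73 and 5.96 and fell short of the lower limit in WT 4, and Foxa1 at 5.57 and Foxf1 at 4.28 did not pass it. Pax1 (5.85), Car12 (4.01) and Basp1 (4.89) did not pass it either, and Dsc2, a desmosomal cadherin (10.11), and Eno2 (6.84) lay between the limits. Bright and dim members thus stood side by side in this list, among the surface proteins as among the regulators, of which Sox9 and Sox6 (13.40 ± 0.16) passed the control limit.

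RNA of neighbouring tissues was looked for with 16 marker lists. None of 11 endothelial genes, 16 skeletal muscle genes, 9 adipocyte genes, 10 B and T cell genes or 9 mast cell and platelet genes passed the control limit. Pecam1 (4.71) and Cdh5 (4.33) of endothelium, Myh4 (4.89) and Acta1 (6.30) of muscle, and Adipoq (4.71) of fat also failed the lower limit. A few members of these lists passed it, 4 of 16 of muscle, with Ckm (6.89), Myl1 (6.80), Actn3 (6.62) and Mb (6.47), 1 of 11 of endothelium, with Vwf (6.48, 6.44, 6.25 and 6.44), and 1 of 9 of fat, with Pparg (8.38). Among osteoblast and osteocyte genes none passed the control limit on all 4 arrays, although Ibsp, bone sialoprotein, came close with 10.95, 9.89, 9.75 and 10.74. Members that passed the control limit were Csf1r (10.97) on the macrophage list, Ctsk (11.33) on the osteoclast list, Pmp22 (16.11) and S100b (11.38) on the neural list, Sbsn (13.62) on the epidermal list and Mitf (10.88) on the melanocyte list. Whether such cells contributed was not tested. Other members of the same lists did not pass the lower limit, with Adgre1 at 5.18, Acp5 at 4.82, Sox10 at 4.83, Krt14 at 5.02 and Tyr at 3.90. Between the limits were Cd14 (7.46), Mrc1 (7.06) and Ptprc (6.55) of the macrophage list, Tubb3 (6.54) of the neural list and Mlana (8.89) of the melanocyte list. Of 12 annulus and tendon genes Fmod passed the control limit, and the tendon genes Scx (5.56, 6.47, 7.32 and 7.28), Mkx (5.52) and Tnmd (3.90) did not pass the lower one on every array.

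Of these lists, the largest shares above the control limit were those of cartilage (41.7%) and contractile cells (27.3%), against 21.1% of all genes. Of 11 smooth muscle and pericyte genes 3 passed the control limit and 5 the lower one (45.5%, against 50.8% of all genes). Acta2, smooth muscle actin, read 16.70, 15.06, 16.93 and 16.65, and Tagln, an actin-binding partner, read 14.09, 11.95, 13.97 and 13.97, with WT 2 lowest in both. Myh11 lay between the limits at 9.53, while Des (3.64), Rgs5 (4.52) and Kcnj8 (4.63) did not pass the lower limit. Of the end plate and growth plate list 5 of 12 passed the control limit: Cytl1 (14.81), Pth1r, the parathyroid hormone receptor (12.47), Snorc (11.85), Chad (11.70) and Ucma (11.24). Matn1 (3.97), Matn3 (4.60), Ihh (4.53) and Epyc (4.83) of the same list did not pass the lower limit. Whether cells of the end plate contributed was not tested.

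**Figure D2:**
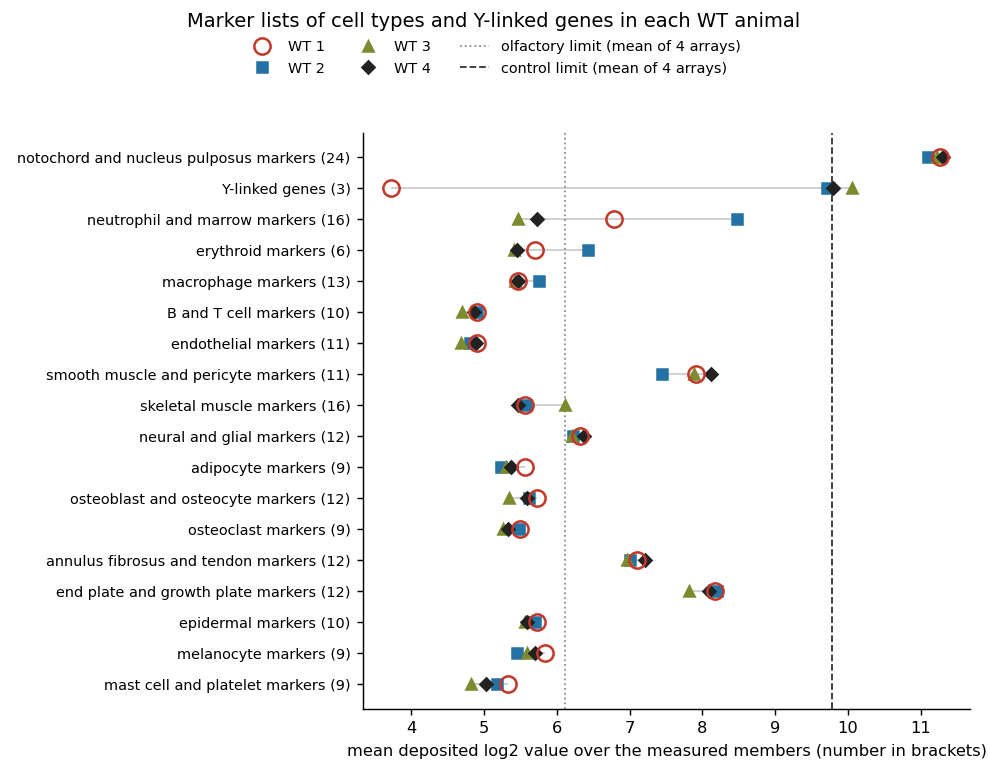
Mean deposited log2 value (x axis) over the measured members of each marker list, with 1 symbol per WT animal, and the mean of both limits as vertical lines. The nucleus pulposus list reads 11.10 to 11.31 in all animals, the Y-linked genes fall to 3.72 in WT 1, and the neutrophil list is highest in WT 2 at 8.48.

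The 25 genes with the brightest features, predicted genes and small RNAs left out, are described next, in an order that holds for the features of this array only. Car3, a cytosolic carbonic anhydrase of low catalytic activity, had the brightest feature at 19.33, 19.30, 19.32 and 19.25. Vim, the intermediate filament vimentin, followed at 19.10 ± 0.018, then Eef1a1, which delivers transfer RNA to ribosomes, at 19.08 ± 0.022, and Fth1, the ferritin heavy chain, at 18.87 ± 0.037. Matrix genes in this group were Fn1 (fibronectin) at 17.99 ± 0.14, Acan at 17.92 ± 0.13, Fmod (fibromodulin, which binds collagen fibrils) at 17.80 ± 0.10 and Htra1, a secreted protease, at 17.80 ± 0.11. Genes of glucose use were Slc2a1 at 18.80 ± 0.19, Pkm (pyruvate kinase) at 17.79 ± 0.036, Ppp1r3c, which directs a phosphatase to glycogen, at 17.85 ± 0.29, Txnip, a brake on glucose uptake, at 17.91 ± 0.29, and Bsg (basigin), the membrane partner of lactate carriers, at 18.36 ± 0.10. Serpina1e, of the alpha-1-antitrypsin family, stood at 18.28 ± 0.023. The others were App, Cd81, Cyb5r3, Cd164, Rps23, Tmem255a, Ccni, Actb, Nap1l1, Nudt4 and Serinc3, from 17.79 for Serinc3 to 18.58 for App. The animals hardly differed in these genes: SD ran from 0.018 for Vim to 0.29 for Txnip, where WT 1 read 18.34 and the others 17.74 to 17.83.

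Matrix genes above the control limit included proteoglycans, glycoproteins, type VI collagen and processing enzymes, and no fibrillar collagen chain. Against 21.1% of all genes, 7 of 19 (36.8%) in the aggrecan and hyaluronan network passed the control limit, and a further 1 the lower limit. Beside Acan these were Hapln1, the link protein that fixes aggrecan to hyaluronan, at 15.37 ± 0.36, Srgn (serglycin) at 13.60 ± 0.24, the hyaluronan receptor Cd44 at 11.74 ± 0.32, Vcan (versican) at 11.38 ± 0.58, Prg4 (lubricin) at 11.32 ± 1.01 and Hspg2 (perlecan) at 10.46 ± 0.22. None of the 3 hyaluronan synthase genes passed the lower limit, with Has2 at 5.93, 6.76, 5.72 and 6.12. Among small leucine-rich proteoglycans, which bind collagen fibrils and growth factors, Fmod, Prelp (16.08 ± 0.31), Bgn (13.04 ± 0.52), Dcn (12.86 ± 1.31), Ogn (11.98 ± 0.45) and Chad (11.70 ± 1.18) passed the control limit. Lum (5.95) and Omd (6.25) did not pass the lower one. Dcn and Chad were also among the more variable genes, both highest in WT 2: Dcn read 11.60, 14.60, 12.16 and 13.09 and Chad 10.54, 13.26, 11.12 and 11.87.

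Of the 11 fibrillar collagen chains none passed the control limit and 5 passed the lower limit, namely Col11a1 (9.59 ± 0.23), Col1a1 (9.20 ± 0.51), Col2a1, Col11a2 (7.83 ± 0.11) and Col1a2 (6.82 ± 0.47). Col3a1 stood at 4.98, at background. Of the 31 other chains 3 passed the control limit, all of beaded-filament type VI collagen: Col6a1 at 13.71, 13.52, 13.67 and 14.02, Col6a2 at 13.21, 12.97, 13.15 and 13.39 and Col6a3 at 12.73, 12.83, 12.47 and 12.99. The basement membrane chains Col4a1 (5.27) and Col4a2 (4.61) did not pass the lower limit. Against this, collagen-processing enzymes were well represented, with 14 of 22 above the control limit. They included Crtap (14.96 ± 0.11) of the prolyl 3-hydroxylase complex, the prolyl 4-hydroxylase genes P4hb (14.32 ± 0.082), P4ha1 (14.02 ± 0.31) and P4ha3 (13.55 ± 0.20), Pcolce2 (14.12 ± 0.083), an enhancer of procollagen trimming, and Loxl3 (13.19 ± 0.36), a crosslinking oxidase. Lox (8.34) lay between the limits and Loxl1 (4.95) did not pass the lower one. These are RNA levels and do not measure the collagen protein already laid down.

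Against 21.1% of all genes, matricellular and cartilage glycoproteins passed the control limit in 12 of 39 cases (30.8%). Fn1, Sparc (osteonectin, 17.69 ± 0.16), Sparcl1 (16.34 ± 0.14), Ccn3 (14.90 ± 0.26), Tnxb (tenascin-X, 13.63 ± 0.14) and Mgp (matrix Gla protein, an inhibitor of calcification, 12.72 ± 0.82) were among them, and so were Ccn1 and Ccn2, which varied widely between the animals. Comp (8.50) lay between the limits, and Tnc (6.12), Postn (5.88) and Matn4 (4.86) did not pass the lower one. Enzymes that build and sulfate glycosaminoglycan chains had 17 of 32 members above the control limit and 27 of 32 above the lower limit. Xylt1, which starts chains on the core protein, stood at 15.48 ± 0.074, Ugdh, which makes the sugar donor, at 13.53 ± 0.26, the chondroitin sulfotransferase Chst11 at 13.65 ± 0.13, and Papss2, which makes the sulfate donor, at 12.95 ± 0.13. Other enzymes of chain building on the list lay between the limits, among them B4galt7 (7.34), B3galt6 (6.88), B3gat3 (9.02) and Chpf (9.18).

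Proteases that cut matrix were read by family. None of 21 matrix metalloproteinases passed the control limit, and only Mmp14 (7.92, 8.02, 8.07 and 7.94), Mmp19 (6.83) and Mmp23 (6.51) passed the lower limit. Mmp2 (4.55), Mmp3 (5.10) and Mmp13 (4.50) were at background. Of 18 ADAMTS proteases 2 passed the control limit, Adamts1 at 12.01, 12.39, 12.30 and 11.91 and Adamts20 at 10.32, 9.93, 10.28 and 10.35. Of the aggrecanases, Adamts5 lay between the limits at 6.62, 6.50, 6.93 and 6.72 and Adamts4 was at background at 4.30, 4.62, 3.97 and 4.65. Of 23 genes of proteases and their inhibitors on a further list 8 (34.8%) passed the control limit, against 21.1% of all genes. These 8 included the secreted protease gene Htra1 (17.80 ± 0.11), Timp2 at 16.29 ± 0.10, Timp3 at 15.62 ± 0.23, Cst3 (cystatin C) at 16.68 ± 0.081 and Serpina1a at 14.89 ± 0.32. Timp1 (7.25) lay between the limits. The cathepsin genes Ctsk (11.33 ± 0.061) and Ctsb (15.75 ± 0.047) passed as well. The Serpina1 genes are close copies of each other, so a feature may read more than 1 of them.

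Of 24 integrin chains, receptors that hold cells to the matrix, 5 passed the control limit, close to the 21.1% of all genes: Itgb1 (15.84 ± 0.050), Itgav (14.34 ± 0.041), Itgb5 (11.75 ± 0.16), Itga5 (11.30 ± 1.15) and Itga6 (11.05 ± 0.14). The leukocyte chains Itgb2 (4.04) and Itgam (5.09) did not pass the lower limit. Of 13 laminin chains and their binding partners 3 passed the control limit, also close to the 21.1% of all genes: Lama4 (13.26 ± 0.23), Lamb3 (13.00 ± 0.25) and Lamb2 (10.58 ± 0.31). Lama5 (4.07) was at background. Ddr2, a kinase receptor for collagen, stood at 15.95 ± 0.20.

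Inside the cell, the keratin genes Krt8, Krt18, Krt19, Krt7 (12.76 ± 0.30) and Krt80 (12.63 ± 0.51) passed the control limit. They were 5 of 7 on a list of mainly simple epithelial keratins. The epidermal Krt5 (3.71) and Krt14 did not pass the lower one, although Sbsn of the epidermal list passed the control limit. Annexins, which bind membrane in the presence of calcium, were above the control limit in 9 of 12 cases, among them Anxa1 (16.94 ± 0.39), Anxa8 (15.73 ± 0.094), Anxa2 (15.27 ± 0.31), Anxa4 (14.97 ± 0.074) and Anxa5 (14.87 ± 0.37). Of 17 S100 calcium-binding genes 4 passed, close to the 21.1% of all genes: S100a11 (16.35 ± 0.090), S100a6 (14.89 ± 0.26), S100a10 (13.00 ± 0.33) and S100b. Gja1 (connexin 43), which joins cells through gap junctions, stood at 16.85 ± 0.28. Of 21 genes of actins, tubulins and vimentin 10 passed the control limit, with Tuba1b (16.99 ± 0.091), Tuba1c (15.73 ± 0.39), Tubb5 (14.67 ± 0.28) and Tuba1a (14.21 ± 0.26) among the tubulins. The forms of neurons (Tubb3, 6.54) and platelets (Tubb1, 6.48) lay between the limits. Of 22 claudins only Cldn19 (10.97, 11.90, 11.43 and 10.93) passed the control limit.

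**Figure D3:**
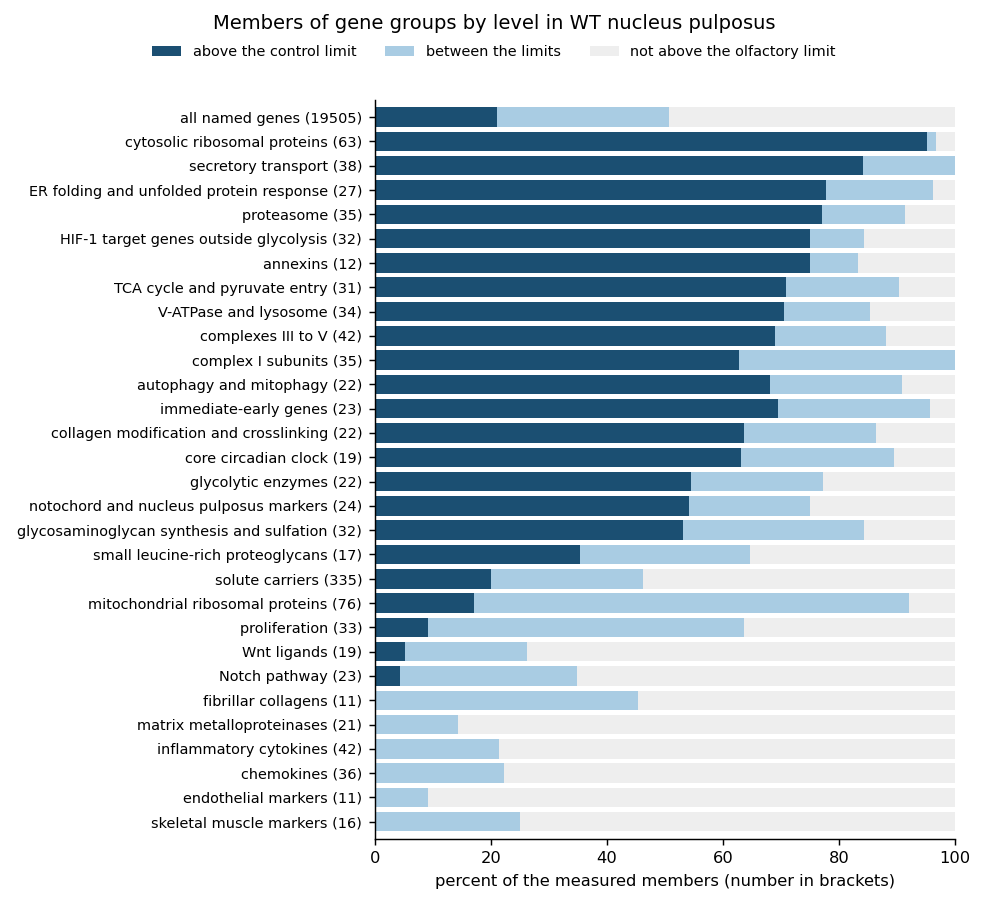
Share of the measured members of each gene group (x axis, percent, with the number of members in brackets) above the control limit, between the limits and not above the olfactory limit in WT nucleus pulposus. Over all 19505 genes the shares are 21.1%, 29.7% and 49.2%, and the groups run from cytosolic ribosomal proteins, with 60 of 63 above the control limit, to groups with no member above it.

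Most steps of glycolysis had a gene above the control limit. Of 12 glucose carrier genes Slc2a1 and Slc2a3 (GLUT3), at 11.51, 11.48, 12.35 and 12.86, passed the control limit, and the insulin-regulated Slc2a4 lay between the limits at 6.39, 6.38, 6.48 and 6.46. Of 22 glycolytic genes 12 passed the control limit and 17 the lower limit. They were Hk1 (12.91 ± 0.032) and Hk2 (12.06 ± 0.58) for hexokinase, Pfkp (14.45 ± 0.20) and Pfkl (13.64 ± 0.38) for phosphofructokinase, Aldoa (17.37 ± 0.069) and Aldoc (13.28 ± 0.42) for aldolase, and then Tpi1 (15.96 ± 0.23), Gapdh (17.62 ± 0.044), Pgk1 (16.32 ± 0.015), Pgam1 (13.83 ± 0.069), Pkm and Ldha (17.32 ± 0.076). The genes of glucose-6-phosphate isomerase and of the main enolase were not analysed here, and the neuronal enolase Eno2 (6.84) and the muscle enolase Eno3 (6.73) lay between the limits, as did Hk3 (6.51). The genes of the list at background were Pklr (liver pyruvate kinase) at 5.21, Pgam2 (muscle mutase) at 4.86, and the testis forms Pgk2 (4.63), Ldhc (3.65) and Gapdhs (3.98). Ldhb, the lactate dehydrogenase of oxidative tissues, lay between the limits at 9.15, 8.88, 8.48 and 8.64, and Pfkm, the muscle phosphofructokinase, at 9.91, 10.13, 9.91 and 9.88.

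Lactate leaves the cell through carriers of the Slc16 family with basigin. Slc16a3 was above the control limit at 13.48 ± 0.12 and Slc16a1 (MCT1) at 10.18, 11.22, 10.89 and 11.08. Slc16a7 (MCT2) was at background at 3.63, 3.58, 4.37 and 3.65, and of the remaining Slc16 genes measured only Slc16a5 (6.50) passed the lower limit. The mitochondrial pyruvate carrier gene Mpc1 stood at 14.35 ± 0.15. Slc16a3 and Slc16a1 for lactate, and Mpc1 for the entry of pyruvate into mitochondria, were thus above the control limit. For pyruvate entry only Mpc1 is given here.

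Genes of the TCA cycle and of the respiratory complexes were also widely above the control limit. In the TCA cycle and pyruvate entry list 22 of 31 genes passed the control limit and 28 of 31 the lower limit, with Mdh1 (malate dehydrogenase, 13.56 ± 0.18), Ogdh (13.04 ± 0.26), Idh2 (12.64 ± 0.19) and Cs (citrate synthase, 11.80 ± 0.14) among them. Pdk1, the kinase that shuts pyruvate dehydrogenase under low oxygen, stood at 13.53, 13.44, 13.48 and 13.45. The genes Pdha1 (12.04 ± 0.57) and Pdhb (12.28 ± 0.16), of subunits of that dehydrogenase, passed the control limit as well. All 35 complex I subunits passed the lower limit and 22 the control limit, from Ndufa8 (14.16 ± 0.15) and Ndufb9 (14.08 ± 0.10) to Ndufv3 (7.15 ± 0.17). In complexes III to V 29 of 42 passed the control limit, with Cox7c (16.76 ± 0.090), Uqcrb (16.67 ± 0.12) and Atp5b (15.58 ± 0.062) bright. Cox4i2, the cytochrome oxidase subunit form linked to low oxygen, read 14.30, 13.58, 13.67 and 14.25 and the general form Cox4i1 13.18, 13.37, 13.43 and 13.26, both above the control limit. Of the forms known from testis and muscle, Cox6b2 (4.11), Cox7b2 (5.44), Cox8c (6.45) and Cox6a2 (6.04) were at background and Cox8b (7.36) and Cox7a1 (6.75) lay between the limits.

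In fatty acid uptake and oxidation 11 of 35 (31.4%) passed the control limit, against 21.1% of all genes. Those that passed included Hadha (11.83 ± 0.13) and Hadhb (11.88 ± 0.060) of the trifunctional protein and the carrier gene Slc27a1 (12.66 ± 0.21). The entry enzyme Cpt1a lay between the limits at 8.42, 8.11, 8.12 and 7.97, Cpt2 was at background at 6.11, 6.09, 5.68 and 5.63, and so was the mitochondrial regulator Ppargc1a at 5.75, 5.46, 5.32 and 5.39. Of gluconeogenesis, Pck1 (4.19), Pck2 (5.69), Fbp1 (5.31), Fbp2 (4.29) and the liver phosphatase gene G6pc (5.76) were at background, Pcx (pyruvate carboxylase, 9.35) lay between the limits, and the widely expressed phosphatase gene G6pc3 (12.51 ± 0.21) was above the control limit. Of glycogen turnover, Gys1 (the non-liver synthase, 12.82 ± 0.13), Pygl (a phosphorylase, 13.07 ± 0.16) and Gaa (lysosomal glucosidase, 13.63 ± 0.076) were above the control limit beside Ppp1r3c. All 14 genes measured of the pentose phosphate and hexosamine routes passed the lower limit and 7 the control limit, among them Gfpt2 (12.99 ± 0.27), which opens the hexosamine route, and Ogt (12.50 ± 0.28) and Oga (14.07 ± 0.23), which add and remove its product on proteins. In lipid synthesis Scd1, a desaturase, stood at 16.10 ± 0.24, Srebf2, the regulator of sterol genes, at 14.26 ± 0.14 and Hmgcs1 at 12.65 ± 0.52. Of that list 10 of 26 (38.5%) passed the control limit, against 21.1% of all genes.

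**Figure D4:**
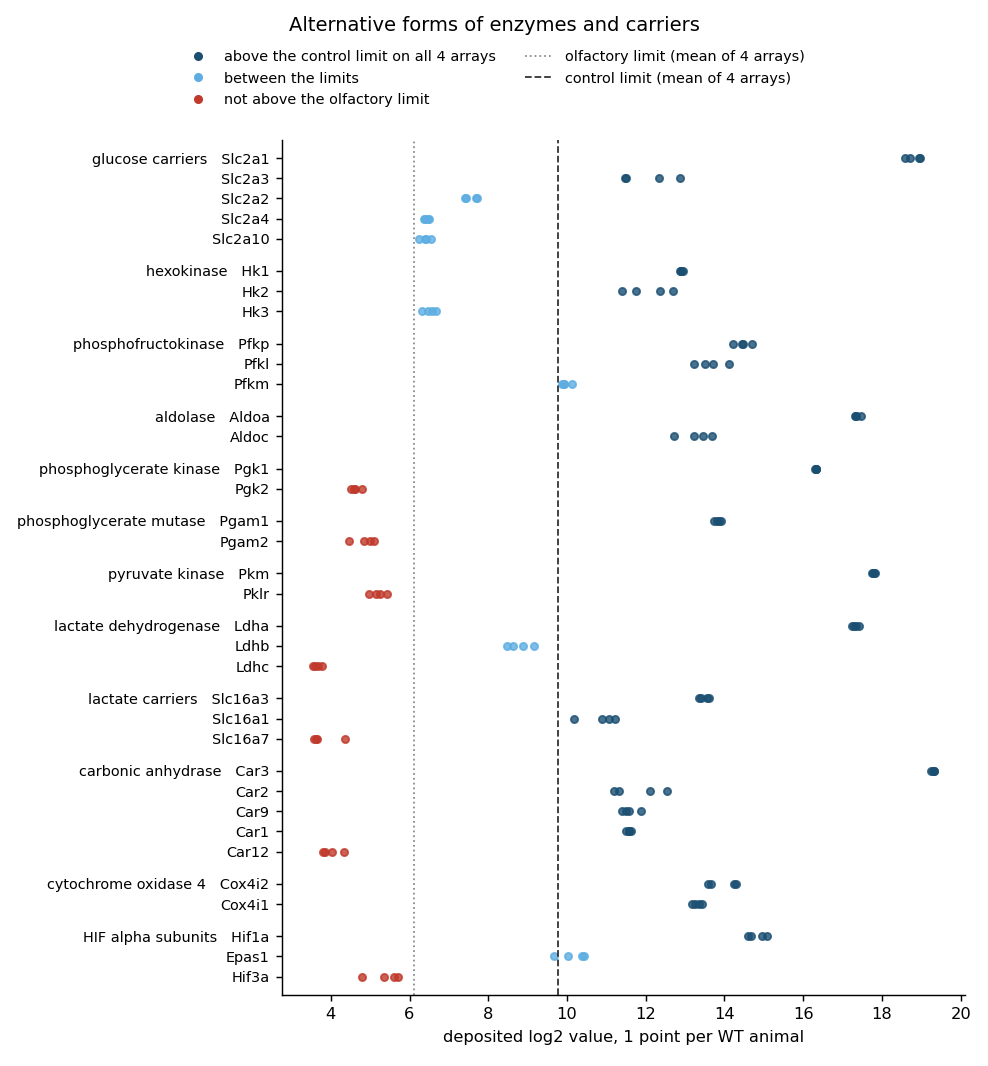
Deposited log2 value (x axis) of alternative forms of enzymes, carriers and subunits, with 1 point per WT animal and colour by tier. At most steps 1 or 2 forms pass the control limit on all 4 arrays, and forms such as Pgk2, Pgam2, Pklr, Ldhc, Slc16a7 and Car12 do not pass the olfactory limit; levels of different genes are not to be compared.

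Genes of the oxygen response, and most of the known targets listed here, read above the control limit in untreated tissue. Hif1a, the oxygen-labile subunit of HIF-1, read 14.59, 14.68, 14.95 and 15.08 and its partner Arnt 10.92, 10.86, 10.84 and 10.71, both above the control limit. Epas1 (HIF-2 alpha) read 10.37, 9.67, 10.44 and 10.02 and passed the control limit in some animals only, and Hif3a was at background at 5.72, 4.78, 5.34 and 5.61. The prolyl hydroxylases that mark HIF for decay were above the control limit for Egln1 (14.74 ± 0.20) and Egln3 (15.37 ± 0.18), and Egln2 lay between the limits at 8.80. Cited2, which competes with HIF for its coactivators, stood at 17.18 ± 0.53. Of 32 known HIF-1 targets outside glycolysis 24 passed the control limit and 27 the lower one, with a median level of 12.24. Ndrg1 stood at 16.54 ± 0.20, Bhlhe40 at 16.46 ± 0.50, the mitophagy receptor gene Bnip3 at 15.82 ± 0.33, its relative Bnip3l at 14.62 ± 0.15 and Vegfa, the vessel growth factor, at 14.88 ± 0.44. Targets at background were Epo (3.38), Nos2 (4.52), Edn1 (5.01), Angptl4 (6.00) and Car12 (4.01).

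Promoters of 4 of these genes are shown because each holds the core of the hypoxia response element within the 250 bases before the start site. The core searched was ACGTG or GCGTG on both strands, and capitals mark each match, which reads CACGT or CACGC where it lies on the other strand, with overlapping matches run together. Sequences are RefSeq's of build GRCm38.p6, given 5′ to 3′ on the strand of the gene.
Slc16a3: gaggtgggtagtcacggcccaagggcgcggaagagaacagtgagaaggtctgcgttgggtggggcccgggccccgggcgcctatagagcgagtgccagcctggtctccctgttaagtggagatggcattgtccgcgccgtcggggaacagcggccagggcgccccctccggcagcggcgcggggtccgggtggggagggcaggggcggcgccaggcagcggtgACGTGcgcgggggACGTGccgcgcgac
Slc2a1: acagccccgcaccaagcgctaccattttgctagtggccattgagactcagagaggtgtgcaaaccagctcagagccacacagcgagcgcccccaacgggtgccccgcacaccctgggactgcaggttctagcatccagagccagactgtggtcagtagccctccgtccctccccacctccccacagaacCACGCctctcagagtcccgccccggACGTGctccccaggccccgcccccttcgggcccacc
Pgk1: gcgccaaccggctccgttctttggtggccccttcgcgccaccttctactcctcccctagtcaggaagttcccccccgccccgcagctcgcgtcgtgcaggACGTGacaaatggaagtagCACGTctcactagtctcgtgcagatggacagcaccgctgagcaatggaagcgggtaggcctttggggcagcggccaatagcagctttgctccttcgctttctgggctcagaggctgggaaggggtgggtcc
Bnip3: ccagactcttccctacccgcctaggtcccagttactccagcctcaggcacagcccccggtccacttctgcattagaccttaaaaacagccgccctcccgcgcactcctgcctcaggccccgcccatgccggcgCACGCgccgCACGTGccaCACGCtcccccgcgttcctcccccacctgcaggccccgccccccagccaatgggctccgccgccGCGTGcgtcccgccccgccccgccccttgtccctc
The Slc16a3 window lies at chr11:120948817-120949066 on the plus strand and holds 2 matches, the nearest 14 bases before the start. The windows of Slc2a1 at chr4:119108495-119108744 (plus strand) and of Pgk1 at chrX:106186850-106187099 (plus strand) hold 2 matches each, and that of Bnip3 at chr7:138909507-138909756 (minus strand) holds 5. Such a short motif is common: 45.4% of the 15691 promoters available for named genes hold the core in either form. The stricter ACGTG was in 18.3% of all promoters, in 24.6% of those of genes above the control limit and in 14.0% of those of genes not above the olfactory limit. That lowest tier holds most olfactory receptors by construction, as they set its limit. Among the HIF-1 targets above the control limit, 20 of 24 had a promoter entry and 11 of the 20 (55%) held ACGTG, and of 12 glycolytic genes above the control limit 4 did. A match is a run of letters and no evidence of binding.

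Acid and bicarbonate are handled by carbonic anhydrases and ion carriers. Of 16 carbonic anhydrases, which turn carbon dioxide into bicarbonate and protons, 5 (31.25%) passed the control limit, against 21.1% of all genes. These 5 were Car3, Car2 (12.12, 12.53, 11.20 and 11.32), Car9, Car1 (11.59, 11.57, 11.62 and 11.50) and the mitochondrial Car5b (10.45, 10.21, 10.77 and 10.48). Car12, another form on the cell surface, did not pass the lower limit. Of 22 bicarbonate carriers and sodium-proton exchangers only Slc9a8 (11.18, 10.83, 10.67 and 10.94), an exchanger of the Golgi, passed the control limit, and 8 passed the lower one. Slc4a1, the red cell exchanger, was between the limits and highest in WT 2, with 8.41, 9.57, 7.86 and 7.70.

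Ion pumps and cotransporters had 8 of 19 genes (42.1%) above the control limit, against 21.1% of all genes. Slc12a2 (NKCC1), which loads cells with sodium, potassium and chloride, stood at 17.25 ± 0.29, and its kinases Wnk1 at 17.53 ± 0.094, Stk39 (SPAK) at 15.14 ± 0.11 and Oxsr1 at 10.39 ± 0.34 were also above the control limit. Of the sodium pump beta chains Atp1b3 (16.06 ± 0.082) and Atp1b2 (10.63 ± 0.14) passed and Atp1b1 was at background at 4.84, 4.80, 5.02 and 4.82. Nfat5, the master regulator of the hypertonic response, read 10.16, 10.58, 10.64 and 10.72. Its known targets Slc6a6 (the taurine carrier, 15.89 ± 0.27), Slc6a12 (the betaine carrier, 11.49 ± 0.84) and Hspa1b (11.17 ± 0.81) passed the control limit, as did the amino acid carrier Slc38a2 (15.67 ± 0.98) and the creatine carrier Slc6a8 (15.70 ± 0.056). None of the aquaporins measured passed the lower limit on every array, with Aqp1 at 6.01, 6.52, 5.16 and 6.17, Aqp5 at 5.77, 6.07, 6.03 and 5.95 and Aqp3 at 4.35, 4.98, 4.37 and 4.59.

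Among channels that sense stretch or chemicals, 8 of 35 of the list passed the control limit, close to the 21.1% of all genes. Among them were Tmem63a (15.52 ± 0.19), Trpm7 (14.06 ± 0.20), Ano6 (12.81 ± 0.28), Ano1 (12.49 ± 0.39) and Trpm4 (12.11 ± 0.22). Trpv4, the osmosensitive channel, read 9.46, 9.55, 9.88 and 9.69 and exceeded the control limit in WT 3 only. Piezo1 (5.49) and Piezo2 (4.55) did not pass the lower limit. Of 73 potassium channel genes only 1 passed the control limit, Kcnk2 (TREK-1) at 11.41, 11.44, 11.68 and 11.95, and of 17 voltage-gated sodium and calcium channels none did. Gabrb2, a GABA receptor subunit, was alone above the control limit among 31 transmitter receptor subunits, at 12.83, 11.73, 11.20 and 11.67. Over all 335 solute carrier genes 67 passed, close to the background share of 21.1%, and the brightest were Slc2a1, Slc12a2, Slc15a5 (17.02 ± 0.17), the zinc carrier Slc39a8 (16.22 ± 0.19) and the glutamine carrier Slc38a1 (16.21 ± 0.20).

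Genes that make, fold and ship protein were above the control limit in most cases. Cytosolic ribosomal proteins passed the control limit in 60 of 63 cases, with a median level of 15.64, and Rpl3l (4.16), the muscle form, was at background. Mitochondrial ribosomal proteins had 13 of 76 (17.1%) above the control limit, below the 21.1% of all genes, but 70 of 76 above the lower one. All 38 genes of secretory transport passed the lower limit and 32 the control limit, from the signal recognition particle (Srp54a, 14.75 ± 0.16) through the translocon (Sec62, 15.20 ± 0.17) to the coats and cargo receptors (Sar1a, 15.55 ± 0.10, and Tmed2, 15.30 ± 0.085). In folding and the unfolded protein response 21 of 27 passed, with Hspa5 (BiP, 16.19 ± 0.23), Calr (15.85 ± 0.089), Hsp90b1 (15.82 ± 0.063) and the stress regulator genes Xbp1 (14.65 ± 0.17) and Atf4 (14.59 ± 0.67). Creb3l2, which drives the secretory programme of cartilage cells, stood at 15.88 ± 0.093, while its relative of bone, Creb3l1, was at background at 5.78.

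Degradation and recycling genes were likewise widely above the control limit. The proteasome list passed the control limit in 27 of 35 cases, and the genes that did not pass the lower limit were the immune, thymus and testis forms Psmb9 (6.12), Psmb11 (4.34) and Psma8 (4.01). Lysosomal genes passed in 24 of 34 cases, with Lamp2 (17.00 ± 0.043), Psap (16.14 ± 0.063) and the protease gene Ctsb (15.75 ± 0.047) bright, and the proton pump forms of kidney and osteoclast, Atp6v1b1 (4.44) and Atp6v0d2 (4.77), at background. In autophagy 15 of 22 passed, with Gabarap (15.79 ± 0.14), Sqstm1 (15.16 ± 0.10) and Map1lc3b (13.99 ± 0.075). Among heat shock proteins and chaperonins 20 of 30 passed, among them Hsp90aa1 (15.92 ± 0.27), Cryab (15.89 ± 0.38), Cct2 (15.09 ± 0.057) and Hspb1 (14.37 ± 0.61).

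Defence against oxidants was broad, with 21 of 38 genes above the control limit. Mgst1 (17.02 ± 0.16) and Gstm1 (16.55 ± 0.12), which join glutathione to toxic compounds, and Gpx1 (16.29 ± 0.13), which removes peroxides, were bright. Nfe2l2 (NRF2), the regulator of many of these genes, read 6.80, 6.28, 6.50 and 6.14 and fell short of the lower limit in WT 4, and its target Hmox1 lay between the limits at 9.26, 9.40, 9.07 and 9.18. Genes of metal and iron storage passed the control limit in 7 of 13 cases, with the metallothionein genes Mt1 (17.27 ± 0.30) and Mt2 (16.66 ± 0.83), Fth1 and Ftl1 (15.48 ± 0.25), while the iron exporter Slc40a1 was at background at 5.35, 5.72, 4.93 and 4.94.

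Of 33 proliferation genes 3 passed the control limit, a share below the 21.1% of all genes, Pcna (14.18, 14.44, 14.05 and 14.07), Rrm1 (11.52, 11.83, 11.92 and 12.02) and Mcm6 (11.20, 10.76, 11.15 and 10.93), and 21 passed the lower limit, a share above the 50.8% of all genes, among them Mki67 at 8.41, 9.38, 8.81 and 8.73. Of the mitotic genes, Plk1 (7.08), Kif20a (6.87), Cenpe (6.78), Ccnb2 (6.67) and Top2a (6.50) lay between the limits, and Cdk1 (4.90), Ccna2 (5.95) and Cdc20 (5.64) were at background. On the side of arrest, Cdkn1a (p21, 14.37 ± 0.47) and Cdkn1b (p27, 11.69 ± 0.24) passed the control limit. Cdkn2a (p16), often used as a marker of senescence, was at background at 3.57, 3.69, 3.68 and 3.79. Ccnd3 (15.22 ± 0.10) and Cdk4 (12.64 ± 0.21), which start the cycle, passed.

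Signalling genes were read pathway by pathway, ligands apart from receptors. Of 30 TGF-beta and BMP ligands 3 passed the control limit: Tgfb2 (13.13, 13.29, 14.38 and 14.82), Bmp5 (13.01, 12.92, 12.97 and 13.12) and Tgfb3 (11.08, 10.51, 11.15 and 10.97). Bmp2 (3.56), Bmp4 (4.33) and Gdf6 (4.87) were at background, and Tgfb1 lay between the limits at 9.80. Among receptors, SMADs and antagonists 13 of 33 (39.4%) passed the control limit, against 21.1% of all genes. These 13 included the receptor genes Acvr2a (14.41 ± 0.28), Tgfbr3 (14.09 ± 0.31), Bmpr2 (13.31 ± 0.074) and Tgfbr2 (12.43 ± 0.11), and Smad4 (12.74 ± 0.086), the shared relay. Grem1, a secreted BMP antagonist, passed too but varied, with 11.82, 13.12, 11.48 and 13.30.

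Of 19 Wnt ligands only Wnt16 passed the control limit, at 12.10, 11.70, 12.08 and 11.49. Wnt receptors, effectors and antagonists passed in 10 of 39 cases, not far above the 21.1% of all genes. They included Ryk (15.24 ± 0.10), Lrp6 (13.80 ± 0.27), Lrp5 (13.33 ± 0.17) and Fzd7 (12.86 ± 0.12) among receptors and Sostdc1 (14.46, 13.55, 13.72 and 14.09) among antagonists. Axin2, a common readout of Wnt signalling, was at background at 4.57, 4.22, 4.54 and 3.91. In the Hedgehog pathway 4 of 18 genes passed the control limit, close to the 21.1% of all genes. They were Disp1 (15.96 ± 0.34), which releases the ligand, and the co-receptor genes Cdon (14.80 ± 0.015), Gas1 (11.89 ± 0.21) and Boc (11.47 ± 0.29). Ptch1, receptor and target, read 10.43, 9.75, 10.26 and 9.83, near the limit, and Gli1, the other common readout, was at background at 5.81, 6.00, 5.99 and 5.89. In the Notch pathway only the nuclear partner Rbpj passed (12.40, 12.50, 12.67 and 12.59), no receptor did, and of the receptors Notch2 (8.24) passed the lower limit. Of 21 FGF ligands only Fgf1 passed, at 14.64, 14.02, 14.62 and 14.49, with the receptor genes Fgfr3 (12.91 ± 0.19) and Fgfr2 (11.80 ± 0.33). Among 29 growth factor receptors 9 (31.0%) passed the control limit, against 21.1% of all genes. These 9 also held Igf2r (12.85 ± 0.15), Fgfrl1 (12.44 ± 0.11), Insr, the insulin receptor (12.19 ± 0.23), Igf1r (11.80 ± 0.12) and Met, the receptor of hepatocyte growth factor (11.36 ± 0.13). Of 13 ligands, binding proteins and proteases of the IGF axis only Igfbp7 (13.14, 13.25, 13.22 and 13.44) passed it, and the ligand genes Igf1 (6.82) and Igf2 (6.82) lay between the limits.

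Factors that guide nerves and vessels were read from a further list, of which 6 of 28 passed the control limit, close to the 21.1% of all genes. They were Ptn (pleiotrophin, 16.01, 15.85, 16.03 and 16.06), Vegfa (14.75, 14.36, 14.98 and 15.42), Slit3 (13.17, 12.79, 12.71 and 13.02), Sema3b (13.06, 12.36, 12.81 and 12.99), Sema3d (12.14, 11.78, 11.17 and 11.74) and Sema3c (11.83, 11.35, 11.37 and 11.29). Sema3a, a repellent of nerve fibres often described in disc, was at background at 5.28, 5.18, 5.47 and 5.48, and so was Bdnf at 3.75. Flt1, a receptor for Vegfa, stood at 10.96 ± 0.40, while Kdr (4.52), the main receptor of endothelium, was at background.

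Inflammatory ligands were all dim or at background. None of 42 inflammatory cytokine genes and none of 36 chemokines passed the control limit, and 9 and 8 passed the lower one. Il1b (5.94, 7.52, 5.42 and 5.59), Il6 (4.29, 5.16, 4.21 and 4.66) and Tnf (3.16, 3.56, 3.13 and 3.61), often named in disc degeneration, did not pass the lower limit. Among those between the limits were Il7 (9.87), Csf1 (9.82) and Cxcl12 (9.39). Of the complement and MHC class I list Clu (clusterin, 16.89 ± 0.17), B2m (15.99 ± 0.061), Cd55 (14.00 ± 0.059), Tapbp (13.60 ± 0.15) and H2-K1 (12.34 ± 0.080) passed the control limit, while C1qa (4.01), C6 (4.02) and Cfb (4.83) were at background.

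Transcription factors were read by family, and for SOX, forkhead and nuclear receptor genes the share above the control limit was not far below the 21.1% of all genes. Of 20 SOX genes Sox9, Sox6 (13.40 ± 0.16) and Sox8 (11.56 ± 0.56) passed the control limit, and Sox5, the usual partner of Sox6 and Sox9 in cartilage, read 10.08, 9.70, 9.58 and 9.99. Of 32 RUNX, T-box, GATA and PAX genes only Mga (13.23, 13.23, 13.13 and 13.16) passed. Of 33 Hox genes Hoxa5 (11.61, 11.17, 11.33 and 11.12) and Hoxd8 (10.75, 11.05, 11.10 and 10.55) passed, and 13 passed the lower limit. Forkhead genes passed in 7 of 39 cases, among them Foxp1 (14.06 ± 0.32). Of 35 nuclear receptors Nr2f2 (12.35 ± 0.35), Thra (11.84 ± 0.16), Nr3c1 (the glucocorticoid receptor, 11.35 ± 0.086), Thrb (11.08 ± 0.47), Rarg (10.40 ± 0.15) and Nr2c2 (10.26 ± 0.14) passed, while the oestrogen receptor genes Esr1 (4.45) and Esr2 (3.60) were at background.

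Families known from other tissues were mostly at background. None of 321 vomeronasal receptors, 38 taste receptors, 61 defensins, 12 alpha interferons, 14 lens crystallins or 20 clustered protocadherins passed the control limit. Some vomeronasal receptors and defensins did pass the lower limit, 48 and 15, shares below the 50.8% of all genes. Of 50 keratin-associated proteins 1 passed the control limit and 14 the lower one. Major urinary proteins had no member above the control limit, but 4 of 9 (44.4%) passed the lower one, near the share of all genes. Of 98 cytochrome P450 genes 3 passed the control limit: Cyp20a1 (12.14 ± 0.16), Cyp27a1 (11.61 ± 0.28) and Cyp1b1 (11.22 ± 0.42).

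Most levels were steady between the animals, but a group of early response genes was not. The 15 genes of highest SD above the control limit were Atf3, Ccn2, Rcan1, Ccn1, Fosb, Emp1, Rnd3, Btg2, Zfp36, Adm, Ier3, Klf6, Errfi1, Klf2 and Jun, with SD from 1.32 for Jun to 2.83 for Atf3, against a median of 0.17. Atf3, a stress-induced transcription factor, read 9.99, 15.49, 15.33 and 16.01. Ccn1 and Ccn2, secreted proteins induced by stretch and by YAP, read 14.27, 17.08, 18.15 and 18.70 and 11.09, 11.58, 14.87 and 15.42. Fosb and Jun, the paired chains of AP-1, read 11.95, 16.75, 14.55 and 14.76 and 12.53, 15.23, 15.12 and 15.14. WT 1 was lowest in all 15. It was lowest in 41 of the 50 genes of highest SD, against 1230 of all 4106 genes above the control limit, and WT 4 was highest in 28 of the 50. Without WT 1 the SD of Atf3 was 0.36, that of Btg2 0.21, that of Klf2 0.14 and that of Jun 0.060, while Ccn2 (2.07) and Rcan1 (1.81) still varied, since WT 2 lay nearer to WT 1 in these.

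Over the whole list of 23 immediate-early genes, which are switched on within minutes of a stimulus, the mean level was 10.66, 13.28, 12.75 and 13.32 in WT 1 to 4. WT 1 thus lay below the other animals, which lay close together. Of the list 16 passed the control limit on all 4 arrays and 22 the lower limit, and 17 passed the control limit without WT 1. Even in WT 1 the brightest of them were far above background, with Dusp1, a phosphatase of stress kinases, at 15.80, 17.96, 18.17 and 18.35, Egr1 at 15.40, 17.80, 17.30 and 17.71 and Fos at 15.50, 17.86, 17.20 and 17.43. Sequence near the start of such genes often holds elements for CREB and for serum response factor, and 3 promoters that do are shown, in the same build and orientation as above. Capitals mark the full cAMP response element TGACGTCA in Dusp1 and Btg2 and the CArG box in Zfp36, searched on both strands.
Dusp1: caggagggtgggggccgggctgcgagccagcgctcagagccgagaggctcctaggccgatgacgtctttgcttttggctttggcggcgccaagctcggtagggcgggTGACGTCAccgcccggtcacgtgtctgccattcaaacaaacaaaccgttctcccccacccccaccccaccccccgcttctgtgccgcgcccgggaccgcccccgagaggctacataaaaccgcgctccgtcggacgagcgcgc
Btg2: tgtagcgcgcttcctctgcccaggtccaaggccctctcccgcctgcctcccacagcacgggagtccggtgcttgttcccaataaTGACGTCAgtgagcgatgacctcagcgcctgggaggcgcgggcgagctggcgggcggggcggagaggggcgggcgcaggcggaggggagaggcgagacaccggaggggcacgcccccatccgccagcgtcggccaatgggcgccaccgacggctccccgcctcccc
Zfp36: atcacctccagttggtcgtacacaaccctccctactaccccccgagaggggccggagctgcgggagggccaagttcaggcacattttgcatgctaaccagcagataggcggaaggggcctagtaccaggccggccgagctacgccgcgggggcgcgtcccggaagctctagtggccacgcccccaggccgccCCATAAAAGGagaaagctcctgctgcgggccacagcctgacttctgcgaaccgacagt
The windows lie at chr17:26508473-26508722 for Dusp1, chr1:134079156-134079405 for Btg2 and chr7:28379229-28379478 for Zfp36, all on the minus strand. TGACGTCA was in 2.07% of all promoters, in 3.11% of those of genes above the control limit and in 2 of 13 available promoters of immediate-early genes above it. The CArG box was in 1.34% of all promoters and in 1 of these 13. The Y-linked genes separate WT 1 from the same animals, and the part of sex in these levels was not tested.

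**Figure D5:**
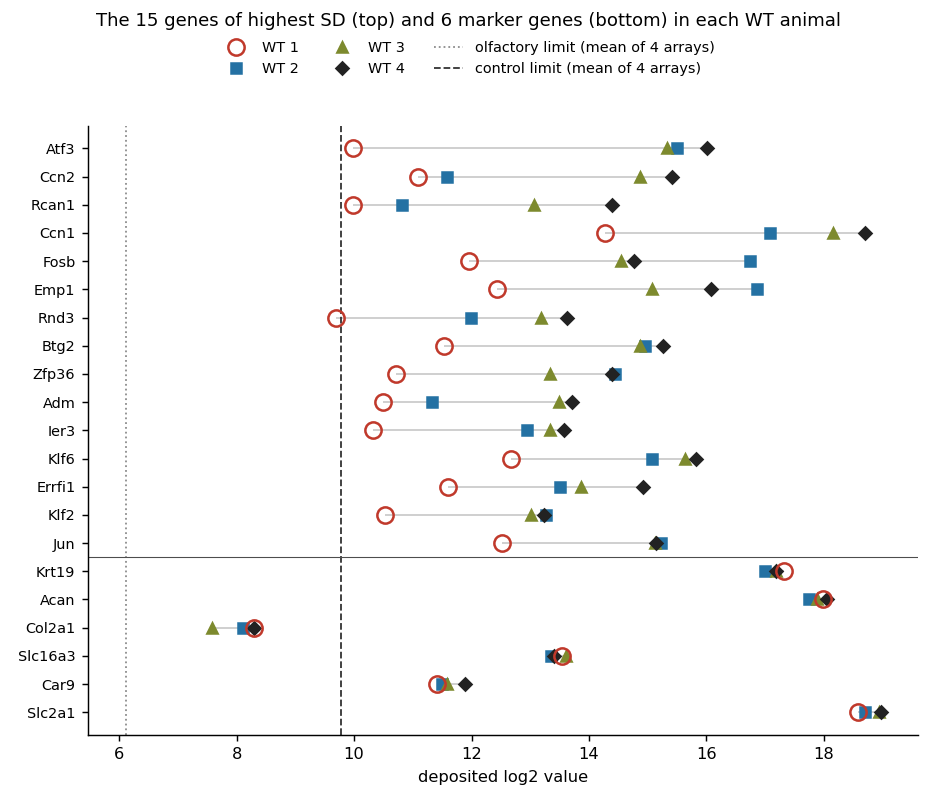
Deposited log2 value (x axis) of the 15 genes of highest SD among those above the control limit and of the 6 marker genes, with 1 symbol per WT animal. WT 1 is lowest in all 15 variable genes, whereas for Krt19 it reads 17.32 beside 17.00 to 17.19 in the others.

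Clock genes, which cycle over the day, were mostly above the control limit, 12 of 19, and their spread was wider than usual, with a median SD of 0.58. Dbp, an output gene, read 16.44, 15.98, 15.42 and 14.71, Arntl (BMAL1), of the opposite phase, read 9.98, 10.25, 11.07 and 11.14, and Per1, which also answers to stimuli, read 12.18, 13.88, 13.77 and 14.32. Dbp was highest where Arntl was lowest, in WT 1, and lowest where Arntl was highest, in WT 4. Nr1d2 (12.66 ± 0.068) and Clock (13.78 ± 0.14) hardly differed between the animals.

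Neutrophil and marrow genes formed another pattern. S100a8 read 10.41, 13.04, 7.71 and 7.86, Ngp (neutrophilic granule protein) 10.33, 13.51, 6.73 and 7.09, Lcn2 (lipocalin-2) 9.67, 13.37, 9.16 and 9.88 and Retnlg 8.06, 11.46, 5.91 and 6.35. WT 2 was highest in each, WT 1 came next in S100a8, Ngp and Retnlg, and WT 3 and WT 4 were low. Over the 16 genes of the list the mean level was 6.79, 8.48, 5.47 and 5.73, and none passed the control limit on all 4 arrays. Mpo (7.49, 9.26, 6.05 and 6.11) and Elane (6.75, 7.43, 5.66 and 5.87), enzymes of neutrophil precursors, followed the same order. The erythroid list moved in the same animals, with means of 5.70, 6.42, 5.41 and 5.46. Dcn, Chad and Prg4 (10.75, 12.84, 10.84 and 10.84) were also highest in WT 2, and Acta2 and Tagln lowest. Their SD without WT 2 was 0.75, 0.67, 0.051, 0.15 and 0.071, and the part of blood, marrow or neighbouring tissue in these levels was not tested.

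A further property of the expressed genes was read from sequence alone. In the 250 bases before the start site, genes above the control limit had a median of 18 CpG dinucleotides, genes between the limits 15 and genes not above the olfactory limit 4. The median GC content was 61.6%, 58.8% and 50.8% in the same order. The TATA motif TATAAA was searched on the strand of the gene only. It was in 3.73% of promoters of genes above the control limit, in 4.75% of those between the limits and in 12.2% of those not above the lower limit. A promoter entry was available for 82.3%, 81.0% and 79.3% of these genes, so the last value rests on slightly fewer of its genes. The lowest tier held 1058 of 1091 olfactory receptors by construction, as they set its limit, and 273 of 321 vomeronasal receptors. The part of these receptor families in the promoter contrasts was not tested.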

How the data were processed

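RNA of nucleus pulposus from WT mice was hybridised to 4 Affymetrix arrays, 1 animal each. The values are log2 signals that the authors deposited, and the submitters' processing notes name Affymetrix Expression Console 1.4.1. How probes were background corrected, normalized and summed up is not stated in the sources used. The highest values exceed 16, the log2 ceiling of a scanner reading, so the scale was changed before deposit and is not the scanner's. No further normalization was applied.

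Features were named from the platform annotation. All 19572 named features were matched by gene ID to the RefSeq table of assembly GRCm38.p6, and for the 55 genes with several features the brightest over the WT animals was used. A listed gene without a feature was not analysed here. Each limit is a 95th percentile of background features on the same array. No group was compared and the main calls rest on no test: levels are given with the SD over 4 animals, whose number limits the precision. A one-sided limma test served only as an alternative call, and Dixon's ratio only to flag animals that stood apart. A total of 84 gene lists and 20 families (by symbol pattern) were counted. Named were the marker genes, the 25 brightest genes, the 15 genes of highest SD above the control limit, up to 5 members of highest level and up to 4 members not above the control limit in each list, and members of a family set side by side. The members and lists were chosen with earlier results of these data known, and some family patterns were narrowed after the data were seen, where they caught a gene of another kind.

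Alternatives were other limits, a one-sided limma call (Benjamini-Hochberg adjusted p under 0.05, checked on simulated data), quantile normalization, median centring, means over features, a filter on dim genes and each animal left out. Python 3.11.15, numpy 2.4.6, pandas 2.3.3, R 4.3.3 and limma 3.58.1 were used.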

Additional observations from a re-analysis of the deposited data

Results flagged for a closer look

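For every gene and gene list named, the highest or the lowest of the 4 WT animals was set against the nearest other animal, and the gap was divided by the range of all 4. Of 550 levels, those of 466 genes and 84 list means, 51 had a ratio above Dixon's 95% critical value for 4 samples. Chance alone gives about 1 in 20, and genes that move together are not independent. A high ratio says that 3 animals lay close together and not that the gap was large, so it was also met by genes with a small spread such as Cd24a (SD 0.015).

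WT 1 stood apart as the lowest animal in 11 of these results, namely Atf3 (0.887), Btg2 (0.894), Dusp1 (0.845), Eif2s3y (0.964), Jun (0.959), Kdm5d (0.856), Klf2 (0.903), Tubb3 (0.891) and Uty (0.937), with the list means of ER folding and unfolded protein response (0.933) and sex-linked genes (0.945). WT 1 stood apart as the highest animal in 8 of these results, namely Acvr2a (0.934), Anxa4 (0.887), Cst3 (0.878), Epo (0.858), G6pc (0.922), Sema3c (0.848), Shh (0.912) and Txnip (0.84). The ER folding list includes Atf3, which read 9.99 in WT 1 and 15.33 to 16.01 in the others, and the part of Atf3 in the list mean was not tested. The gap was wide in the early response genes and in Shh, which read 9.65 in WT 1 and 8.23 to 8.35 in the others.

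WT 2 stood apart as the lowest animal in 7 of these results, namely Acta2 (0.853), Adamts20 (0.841), Anxa8 (0.861), Boc (0.838), Htra1 (0.935), Tagln (0.942) and Timp3 (0.912). WT 2 stood apart as the highest animal in 4 of these results, namely Krt5 (0.856), Pfkm (0.851) and Prg4 (0.957), with the list mean of macrophage markers (0.879). Prg4 read 12.84 in WT 2 and 10.75 to 10.84 in the others.

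WT 3 stood apart as the lowest animal in 7 of these results, namely Cd24a (0.899), Krt14 (0.896), Mt2 (0.842), Postn (0.84) and Vwf (0.848), with the list means of fibrillar collagens (0.881) and inflammatory cytokines (0.898). WT 3 stood apart as the highest animal in 6 of these results, namely Atp1b1 (0.846), Ccni (0.844), Ndufv3 (0.98), Piezo2 (0.84), Ryk (0.892) and Slc16a7 (0.916).

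WT 4 stood apart as the lowest animal in 5 of these results, namely Cyp27a1 (0.863), Gstm1 (0.834), Notch2 (0.869), Scd1 (0.929) and Tmem255a (0.84). WT 4 stood apart as the highest animal in 3 of these results, namely Chst11 (0.885), Myh4 (0.953) and Srebf2 (0.944).

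Outside the named genes, 451 of 2634 transcript clusters with no gene symbol in the annotation were above the control limit on all 4 WT arrays. This share was 17.1%, against 21.1% of the named genes. The 3.60% of the negative control features is low by construction, as they set the limit. A further count at the lower limit gave 1228 of them. They are unnamed here and entered no list.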

How the results depend on the processing

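The limit decides how many genes are called. Against 4106 genes above the 95th percentile of the negative controls in every animal, 520 were above the 99th percentile, 10122 above the median of the controls and 9904 above the limit from olfactory receptors. Limma called 4024, means over features gave 4103, and quantile normalization, median centring and the filter on dim genes gave 4106 each. Leaving out 1 animal gave 4122 to 4304, as a call on fewer arrays is easier to pass. The percentiles of the marker genes moved beyond the spread between animals only with the filter on dim genes, which by its construction leaves fewer genes to rank among: Slc2a1 stood then at 99.953, Acan at 99.842, Krt19 at 99.45, Slc16a3 at 92.095, Car9 at 78.596 and Col2a1 at 33.56. The printed SDs rest on 4 animals and are less stable: of 466 named genes the SD moved by over 1.5 times in 57 to 111 cases with 1 animal left out, in 17 with quantile normalization and in 4 with median centring. Counts of list members followed the limit: with the 99th percentile 68 of 84 moved by over 1.5 times. Of the remaining count changes, the osteoblast list went from 0 to 1 with limma and without WT 3, the keratin-associated family from 1 to 0 with limma, the cytokine list from 0 to 1 without WT 4, and the Y-linked genes from 0 to 2 without WT 1. No paired analysis was possible because 1 group of animals is described and no groups are compared. A dim gene may be absent or read by weak probes, which 4 arrays cannot tell apart.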
